A study of Mus musculus with 6 samples.

Results

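The interferon response genes are a set of 38 genes that type I or type II interferon is known to induce. Their rows were taken by gene symbol from a table of 55401 mouse genes, and all 38 were found. They were measured by RNA-seq in the livers of 3 *Asgr1*-/- mice and 3 WT mice, 1 library per mouse. *Asgr1* encodes a subunit of the asialoglycoprotein receptor of hepatocytes, and the knockout, made with CRISPR/Cas9 in zygotes, removes the gene in every cell of the animal. The *Asgr1*-/- mice were homozygous knockouts and the WT mice their littermates from heterozygous breeding, and both groups were males on a C57/BL6 background, 13 weeks old and fasted overnight. No infection and no interferon treatment is named for either genotype. The questions addressed are how each gene of the set differed between genotypes, and whether its level followed the macrophage content of each liver.

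Interferons reach cells as secreted ligands. Type I interferon binds the IFNAR receptor and, through JAK1 and TYK2, assembles a complex that includes STAT2 and IRF9 on a promoter sequence called the interferon-stimulated response element. Type II interferon, IFN-gamma, acts through IFNGR on promoter sequences called gamma-activated sites. In liver, hepatocytes respond to both ligands, and Kupffer cells, the resident macrophages, are a further source of interferon-induced transcripts.

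The response elements can be read in the promoters of this group. Windows from 250 bases before to 50 bases after the transcription start, taken from RefSeq on GRCm38.p6, were matched by symbol for 28 of the 38 genes. The letters GAAANNGAAA, the core of the interferon-stimulated response element read on both strands, occurred in the windows of 17 of these 28 genes (60.7%), and in 3.99% of the 27025 mouse genes with a window. The letters TTCNNNGAA, a gamma-activated site that reads the same on both strands, occurred in 8 of 28 (28.6%), and in 9.55% of all genes with a window. Per window of this length the shares over the genome were 3.44% and 8.30% of 32851. *Irf1*, *Irf7* and *Irf9* held no GAAANNGAAA in their windows, and the 10 genes without a window included *Mx2*, *Iigp1*, *Zbp1*, *Dhx58* and *Parp14*. A match is a description of the letters and not evidence of binding.

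The 250 bases upstream of the start are printed 5′ to 3′ on the gene's strand for 5 genes that hold GAAANNGAAA and stand for different roles. Capitals mark matches to either pattern, and a match that reads TTTCNNTTTC is the same core on the other strand. They are *Stat2* (chr10:128270248-128270497, + strand), *Ifit3* (chr19:34583279-34583528, + strand), *Isg15* (chr4:156200819-156201068, − strand), *Bst2* (chr8:71537473-71537722, − strand) and *Igtp* (chr11:58199306-58199555, + strand).
Stat2: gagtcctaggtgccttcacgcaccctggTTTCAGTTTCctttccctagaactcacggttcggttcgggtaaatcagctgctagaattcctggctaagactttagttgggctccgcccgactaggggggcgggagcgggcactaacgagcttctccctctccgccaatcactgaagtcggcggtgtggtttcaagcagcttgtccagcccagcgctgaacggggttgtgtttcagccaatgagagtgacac
Ifit3: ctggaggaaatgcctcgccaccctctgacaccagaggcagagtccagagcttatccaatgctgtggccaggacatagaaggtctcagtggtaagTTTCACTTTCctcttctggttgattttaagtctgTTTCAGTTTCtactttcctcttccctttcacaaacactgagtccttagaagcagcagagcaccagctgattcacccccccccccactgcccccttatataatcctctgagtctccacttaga
Isg15: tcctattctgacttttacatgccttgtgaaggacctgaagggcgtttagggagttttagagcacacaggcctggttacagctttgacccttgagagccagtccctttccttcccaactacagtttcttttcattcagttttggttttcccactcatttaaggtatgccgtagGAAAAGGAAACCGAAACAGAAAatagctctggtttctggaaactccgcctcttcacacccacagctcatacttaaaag
Bst2: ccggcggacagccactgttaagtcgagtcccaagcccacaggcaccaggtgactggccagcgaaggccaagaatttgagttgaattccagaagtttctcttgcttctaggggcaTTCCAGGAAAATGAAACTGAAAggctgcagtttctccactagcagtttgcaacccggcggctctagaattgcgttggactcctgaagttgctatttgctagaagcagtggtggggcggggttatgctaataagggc
Igtp: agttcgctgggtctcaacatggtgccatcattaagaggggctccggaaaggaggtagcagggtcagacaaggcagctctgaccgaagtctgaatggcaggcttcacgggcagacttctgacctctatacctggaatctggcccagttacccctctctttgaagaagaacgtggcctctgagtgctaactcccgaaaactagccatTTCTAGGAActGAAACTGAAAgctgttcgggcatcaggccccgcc
The match of *Stat2* began 222 bases before the start. *Ifit3* held separate matches on the reverse strand, the farther one 156 bases before the start, and in *Isg15* the matches overlapped each other from 78 bases before the start. *Bst2* held TTCNNNGAA 136 bases and GAAANNGAAA 130 bases before the start, which overlap, and *Igtp* held TTCNNNGAA at 45 bases and GAAANNGAAA at 34 bases.

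The libraries held 19842637 to 22080809 counts assigned to genes. *Asgr1* itself had 36 to 62 counts in the *Asgr1*-/- livers, against 11716 to 15894 in the WT livers, so every library matched its genotype label. The tissue label was checked with 6 hepatocyte markers, all well detected, among which *Alb* averaged 53720 ± 4280 CPM (read counts scaled to a common library size, per 1000000) in *Asgr1*-/- livers and 64634 ± 4965 CPM in WT livers (SD, n = 3 each). The scaling used TMM, which corrects each library for a few abundant genes. WT livers 1 and 3 stood apart in macrophage transcripts, with the lowest and the highest level of the 6 livers for all 14 markers used. In bulk tissue, fewer cells of a type and less RNA per cell cannot be told apart.

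Expression was low to moderate for most of the 38 genes. On the length-corrected scale, mean FPKM over the 6 livers ranged from 0.198 for *Ifi44* to 472 for *Ifitm3*, a membrane protein that blocks viral entry. The next highest levels were those of *Bst2* at 231 FPKM, *Ifi27* at 88.6 FPKM and *Ifi35* at 26.9 FPKM. A filter of mean FPKM of at least 1 over all livers left 10167 genes for testing, 28 of the 38 among them. The 10 below it were *Ifit2*, *Ifit3b*, *Oas1g*, *Oasl2*, *Mx1*, *Rsad2*, *Cmpk2*, *Gbp7*, *Ifi44* and *Trim30a*, which had between 7 and 112 counts per liver. In an edgeR fit with no filter, 8 of these 10 had estimates below 0 in *Asgr1*-/- livers relative to WT livers, 2 of them at an unadjusted p under 0.05, and the smallest adjusted p was 0.322. Those 2 were *Mx1* at -0.95 and *Rsad2* at -0.79 (log2 fold change).

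The ligands were essentially undetected. Of 9 interferon genes examined, including *Ifnb1*, *Ifna4*, *Ifng* and *Ifnl2*, 8 had 0 counts in every liver and *Ifng* had 1 count in WT liver 1 alone. A count of 0 allows up to 3 counts per library, or 0.151 CPM in the shallowest one. The receptors were present, with mean FPKM of 21.9 for *Ifnar2*, 4.43 for *Ifnar1*, 4.28 for *Ifngr1* and 2.76 for *Ifngr2*.

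**Figure D1:**
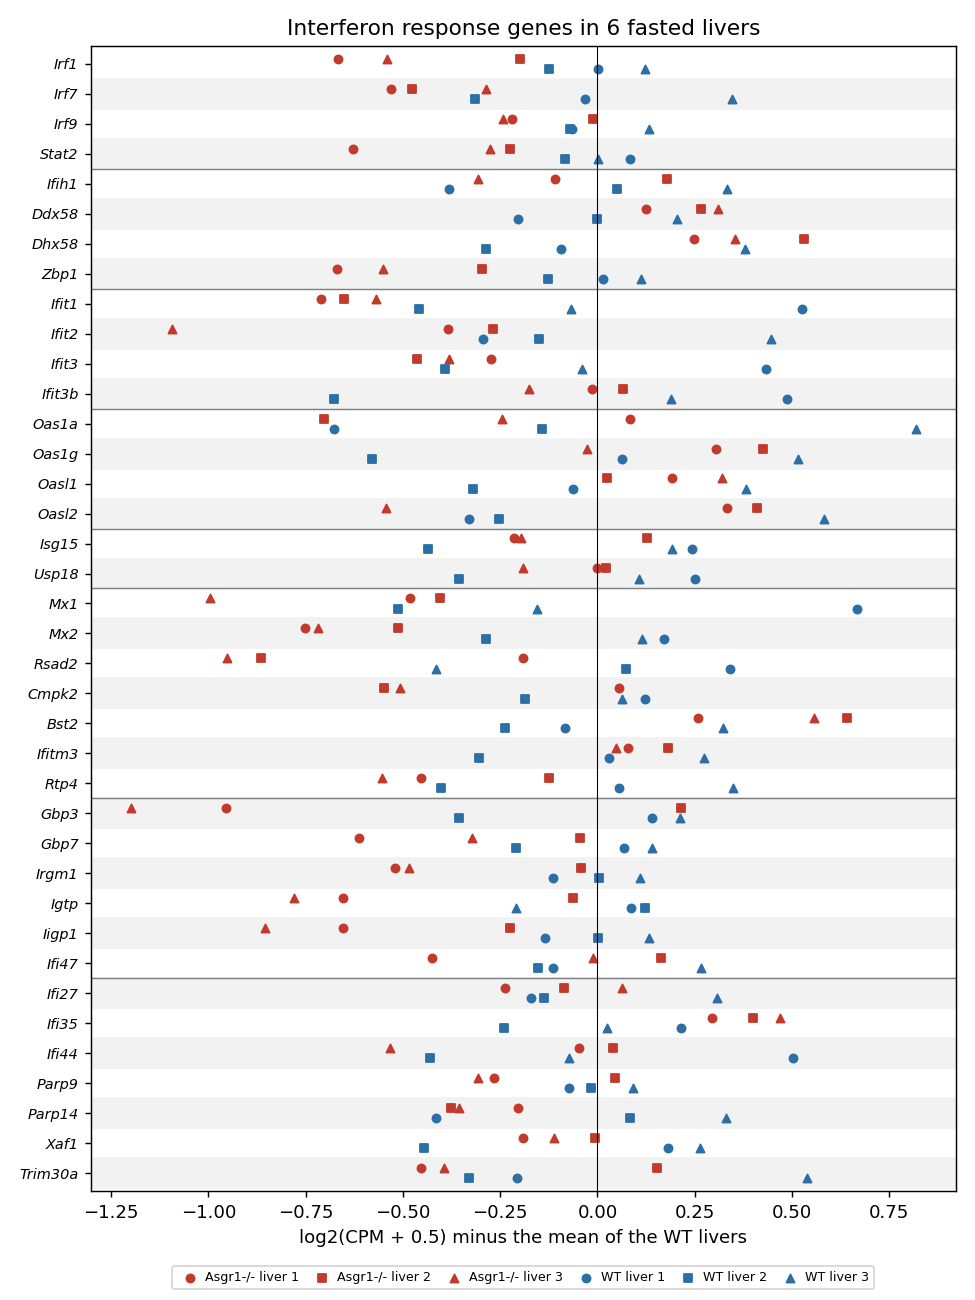
Level of each of the 38 interferon response genes in each liver, as log2(CPM + 0.5) minus the mean of the 3 WT livers (0 on the horizontal axis), grouped by role from top to bottom. Red points are *Asgr1*-/- livers and blue points WT livers, with 1 symbol per mouse. WT liver 3 holds the highest value of 21 genes and WT liver 1 that of 11.

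Most of the interferon response genes had lower estimates in *Asgr1*-/- livers than in WT livers, but none passed the test. The median log2 fold change of the 28 genes tested was -0.26, against -0.02 over all 10167 genes, and 22 of the 28 estimates lay below 0, against 53.3% of all genes. By liver, the median over the 28 genes in log2 units relative to the WT mean was -0.25, -0.03 and -0.28 in *Asgr1*-/- livers 1 to 3. It was -0.02, -0.20 and 0.20 in WT livers 1 to 3, so the genotypes overlapped. With edgeR's quasi-likelihood test and Benjamini-Hochberg adjustment over all genes, 0 of 28 were called higher and 0 lower. A call required an adjusted p under 0.05 together with more than a 1.5-fold difference, and 0.138% of all genes tested met it as higher and 0.157% as lower. The adjusted p-values of the 28 ran from 0.151 for *Mx2* to 0.879 for *Usp18*. At an unadjusted p under 0.05, 9 of 28 were lower and 2 higher, where 8.2% and 7.29% of all genes were. A Wald test in DESeq2 also called 0 of the 28, and 248 of all genes. It gave 9 lower and 2 higher at an unadjusted p under 0.05, where the share of all genes was not taken. The count of 9 was 2 without *Asgr1*-/- liver 1, and the median was -0.11 without WT liver 3. These p-values set each difference against the spread between 3 mice per genotype, moderated over all genes tested.

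The 4 transcription factors of the set all had estimates below 0. *Stat2*, the interferon-specific STAT and the most abundant of them at 17.2 FPKM, had 1693, 1985 and 1941 counts in *Asgr1*-/- livers, against 2398, 2232 and 2308 in WT livers. Every *Asgr1*-/- liver lay below every WT liver, with 89.2 ± 13.1 CPM in *Asgr1*-/- livers and 115 ± 6.70 CPM in WT livers (SD, n = 3 each). The log2 fold change was -0.37 with a standard error of 0.13 and did not pass (edgeR, adjusted p = 0.216), and it was -0.25 without *Asgr1*-/- liver 1. *Irf1*, a transcription factor that activates many genes of this set, had 597, 735 and 585 counts in *Asgr1*-/- livers, against 825, 790 and 914 in WT livers. The livers did not overlap for *Irf1* either, at 30.4 ± 5.35 CPM in *Asgr1*-/- livers and 42.0 ± 3.61 CPM in WT livers, a log2 fold change of -0.47 ± 0.15 (SE; edgeR, adjusted p = 0.184). *Irf7*, which amplifies type I interferon production, had a log2 fold change of -0.46, or -0.26 without WT liver 3, and *Irf9*, the DNA-binding partner of STAT2, one of -0.16.

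The interferon-inducible GTPases, which defend against intracellular pathogens, were also uniform in direction. All 5 members tested (*Iigp1*, *Igtp*, *Irgm1*, *Gbp3* and *Ifi47*) had estimates below 0, between -0.09 for *Ifi47* and -0.59 for *Gbp3*, with a median of -0.48. *Iigp1* had 1555, 1855 and 1210 counts in *Asgr1*-/- livers, against 1925, 2214 and 2364 in WT livers. All *Asgr1*-/- livers lay below all WT livers, at 73.1 ± 16.9 CPM in *Asgr1*-/- livers and 108 ± 10.1 CPM in WT livers (SD, n = 3 each), a log2 fold change of -0.56 ± 0.16 (SE; edgeR, adjusted p = 0.164). DESeq2 gave *Iigp1* an adjusted p of 0.0404 and edgeR with no filter on low values one of 0.00884, in both cases with a fold below 1.5. Over all alternatives its adjusted p ran from 0.00884 to 0.441. *Igtp*, an immunity-related GTPase and the most abundant of this role at 21.5 FPKM, had 727, 974 and 596 counts in *Asgr1*-/- livers, against 1054, 1130 and 873 in WT livers. In the annotation, 8.0% of the exonic bases of *Igtp* are covered by other genes, *Irgm2* on the same strand the most. For *Ifi47* it is 8.8%, *Olfr56* on the same strand the most. For *Igtp*, *Asgr1*-/- liver 2 overlapped the WT livers while the other 2 knockout livers lay below all of them. The same liver stood apart for the role as a whole, since the median over the 5 GTPases, in log2 units relative to the WT mean, was -0.65, -0.04 and -0.78 in *Asgr1*-/- livers 1 to 3, and -0.11, 0.00 and 0.13 in WT livers 1 to 3.

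**Figure D2:**
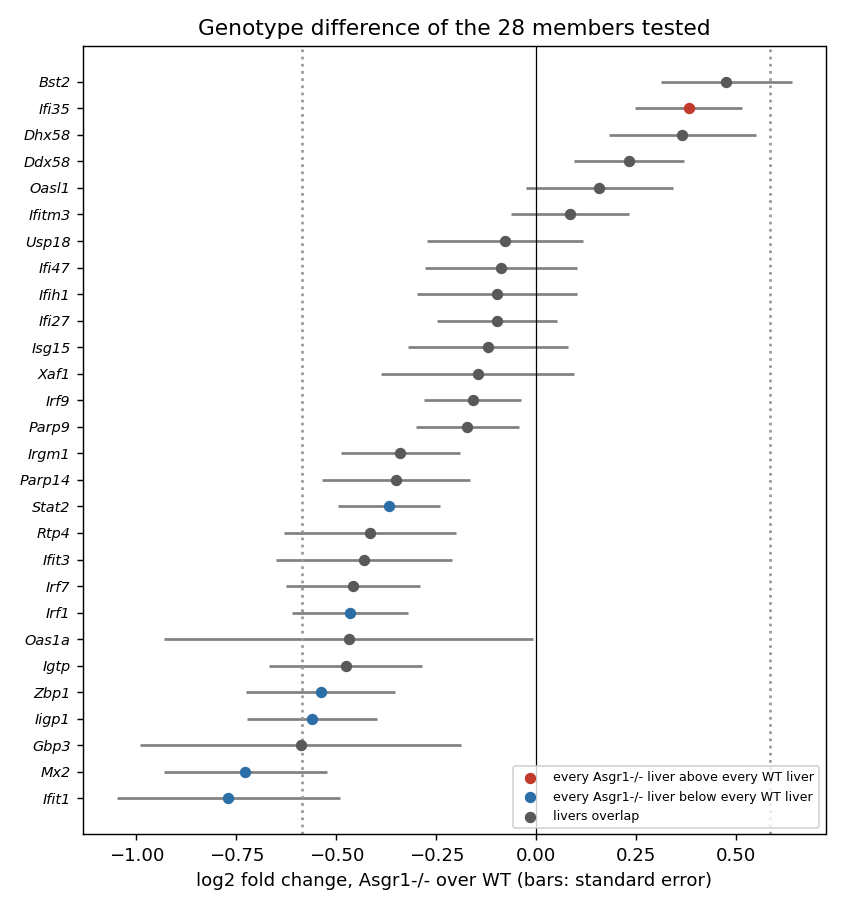
Log2 fold change (*Asgr1*-/- over WT) of the 28 interferon response genes tested, with bars of 1 standard error from edgeR and dotted lines at a fold of 1.5 in either direction. Blue points are the 6 genes with every *Asgr1*-/- liver below every WT liver, red is *Ifi35* with the opposite, and 22 of 28 estimates lie below 0.

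Among the antiviral effectors the direction was split. *Mx2*, a dynamin-like antiviral GTPase, had 98, 104 and 90 counts in *Asgr1*-/- livers, against 169, 126 and 165 in WT livers. The livers did not overlap, at 4.62 ± 0.467 CPM in *Asgr1*-/- livers and 7.65 ± 1.33 CPM in WT livers (SD, n = 3 each), and its log2 fold change of -0.73 ± 0.20 had the smallest p of the 28 (SE; edgeR, adjusted p = 0.151). *Bst2*, the tetherin that holds budding virus at the cell surface, had 4679, 5396 and 5152 counts in *Asgr1*-/- livers, against 3182, 2986 and 4294 in WT livers. Although the counts separate, the CPM values overlapped, because WT liver 3 at 214 CPM stood above *Asgr1*-/- liver 1 at 205 CPM. The means were 242 ± 32.4 CPM in *Asgr1*-/- livers and 174 ± 36.1 CPM in WT livers, a log2 fold change of 0.48 ± 0.16 (SE; edgeR, adjusted p = 0.216). Without WT liver 3, *Bst2* was called higher, with a log2 fold change of 0.65 (edgeR, adjusted p = 0.0444), and over all alternatives its adjusted p ran from 0.0305 to 0.497.

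*Ifitm3* had 7371, 7008 and 6473 counts in *Asgr1*-/- livers, against 6147, 5100 and 7423 in WT livers, and the *Asgr1*-/- livers lay within the WT range on the CPM scale. *Rtp4*, a chaperone for receptors that also restricts viruses, had a log2 fold change of -0.42. Its exonic bases are covered to 13.9% by other genes, *Gm45338* on the same strand the most. Among the effectors below the filter, named here after their values were seen, *Mx1* had 24, 23 and 12 counts in *Asgr1*-/- livers, against 58, 21 and 29 in WT livers. *Rsad2*, or viperin, had 59, 29 and 27 counts in *Asgr1*-/- livers, against 78, 66 and 43 in WT livers. The genotypes overlapped for both genes.

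The sensors of foreign nucleic acid included some of the higher estimates. *Dhx58*, or LGP2, a regulator of RNA sensing and the most abundant sensor at 5.15 FPKM, had 392, 424 and 379 counts in *Asgr1*-/- livers, against 265, 241 and 378 in WT livers. Only WT liver 3 reached the *Asgr1*-/- range on the CPM scale, and the log2 fold change was 0.37 ± 0.18 (SE; edgeR, adjusted p = 0.378). It was 0.59 without WT liver 3 (edgeR, adjusted p = 0.0830) and 0.23 without WT liver 2 (edgeR, adjusted p = 0.665). *Ddx58*, or RIG-I, had a log2 fold change of 0.23, and *Ifih1*, or MDA5, one of -0.10. *Zbp1*, a sensor of Z-form nucleic acid that triggers cell death, went the other way at -0.54 and its livers did not overlap. Other genes, antisense *Dhx58os* the most, cover 4.31% of the exonic bases of *Dhx58* in the annotation. Whether reads were counted by strand is not stated.

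The IFIT genes, whose proteins bind viral RNA, included the lowest estimate of the 28 genes tested. *Ifit1* had 82, 76 and 82 counts in *Asgr1*-/- livers, against 180, 90 and 118 in WT livers. The livers did not overlap, but WT liver 1 alone held a level of 9.15 CPM, against 4.37 and 5.89 CPM in the other WT livers. The log2 fold change was -0.77 ± 0.28 (SE; edgeR, adjusted p = 0.239), and -0.44 without WT liver 1. *Ifit3* had 191, 147 and 158 counts in *Asgr1*-/- livers, against 275, 158 and 199 in WT livers, a log2 fold change of -0.43, and WT liver 1 was again the highest. *Ifit3* shares 51.2% of its distinct 50-base transcript words with *Ifit3b*, its neighbour on chromosome 19, so reads may be split between them.

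In the remaining roles the livers of the genotypes overlapped for every gene tested but *Ifi35*. *Isg15*, the ubiquitin-like modifier, had 290, 328 and 263 counts in *Asgr1*-/- livers, against 347, 223 and 341 in WT livers, and *Usp18*, which removes it, had a log2 fold change of -0.08. *Oasl1*, a member of the OAS family that includes the RNase L activators, had 548, 431 and 538 counts in *Asgr1*-/- livers, against 395, 344 and 551 in WT livers. *Parp9*, a macrodomain protein, had a log2 fold change of -0.17, and *Xaf1*, a promoter of apoptosis, one of -0.15. The exonic bases of *Parp9* are covered to 9.4% by other genes, antisense *Dtx3l* the most. *Ifi35*, an interferon-induced leucine zipper protein, had 1118, 1065 and 1131 counts in *Asgr1*-/- livers, against 912, 693 and 813 in WT livers. Every *Asgr1*-/- liver stood above every WT liver, at 52.4 ± 3.18 CPM in *Asgr1*-/- livers and 40.2 ± 6.34 CPM in WT livers (SD, n = 3 each), with a log2 fold change of 0.38 ± 0.13 (SE; edgeR, adjusted p = 0.223). Other genes, antisense *Gm11626* the most, cover 16.8% of the exonic bases of *Ifi35*, and antisense reads cannot be separated without strand. In all, 6 of 28 genes had every *Asgr1*-/- liver below every WT liver (*Irf1*, *Stat2*, *Zbp1*, *Ifit1*, *Mx2* and *Iigp1*) and 1 had the reverse, where 10.9% of all genes tested did in each direction.

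The macrophage content of the livers differed far more than the interferon response genes did. The score of each liver was the median over 14 Kupffer cell and macrophage markers of log2(CPM + 0.5), relative to the WT mean. It was 0.33, -0.08 and -0.42 in *Asgr1*-/- livers 1 to 3, and -1.56, -0.09 and 1.58 in WT livers 1 to 3. The WT livers therefore enclosed the *Asgr1*-/- livers at both ends. *Clec4f*, a lectin made by Kupffer cells and a defining marker, had 1377, 924 and 884 counts in *Asgr1*-/- livers, against 478, 1098 and 3220 in WT livers. Between the highest and the lowest liver the markers differed by a median of 10.8 times, the 28 interferon response genes by 1.71 times and all genes tested by 1.47 times. Endothelial markers moved with the same livers, with scores of 0.23, -0.30 and -0.17 in *Asgr1*-/- livers and -0.52, -0.07 and 0.62 in WT livers, and the part of each cell type was not tested. Of 14 Kupffer markers, 0 were called between genotypes (edgeR), 0 had an unadjusted p under 0.05, and their median log2 fold change was -0.64.

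No interferon response gene passed a test of whether its level followed that score. The slope is the log2 change of a gene for each log2 unit of the score, in an edgeR fit with genotype and score as terms, so that a gene changing as much as the markers has a slope of 1. The median slope of the 28 genes was 0.06, against 0.00 over the 10153 genes outside the score, and 20 of 28 slopes were above 0, against 49.6% of all genes. At an adjusted p under 0.05, 0 of 28 were called with a positive slope and 0 with a negative one, where 1.7% and 0.424% of all genes were. At an unadjusted p under 0.05, 3 were positive and 0 negative (edgeR), where 8.11% and 7.0% of all genes were, and DESeq2 gave the same counts of 3, 0 and 0 called.

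The slope of the set depended on the livers at the ends of the score. Its median was 0.18 without WT liver 1, which had the lowest score, and -0.15 without WT liver 3, which had the highest. Without WT liver 3, 1 gene of the set had a positive and 5 a negative slope at an unadjusted p under 0.05 (edgeR). How many of all genes reached that p without WT liver 3 was not taken. These counts therefore have no background beside them, and whether the set differed from other genes in that fit was not tested.

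**Figure D3:**
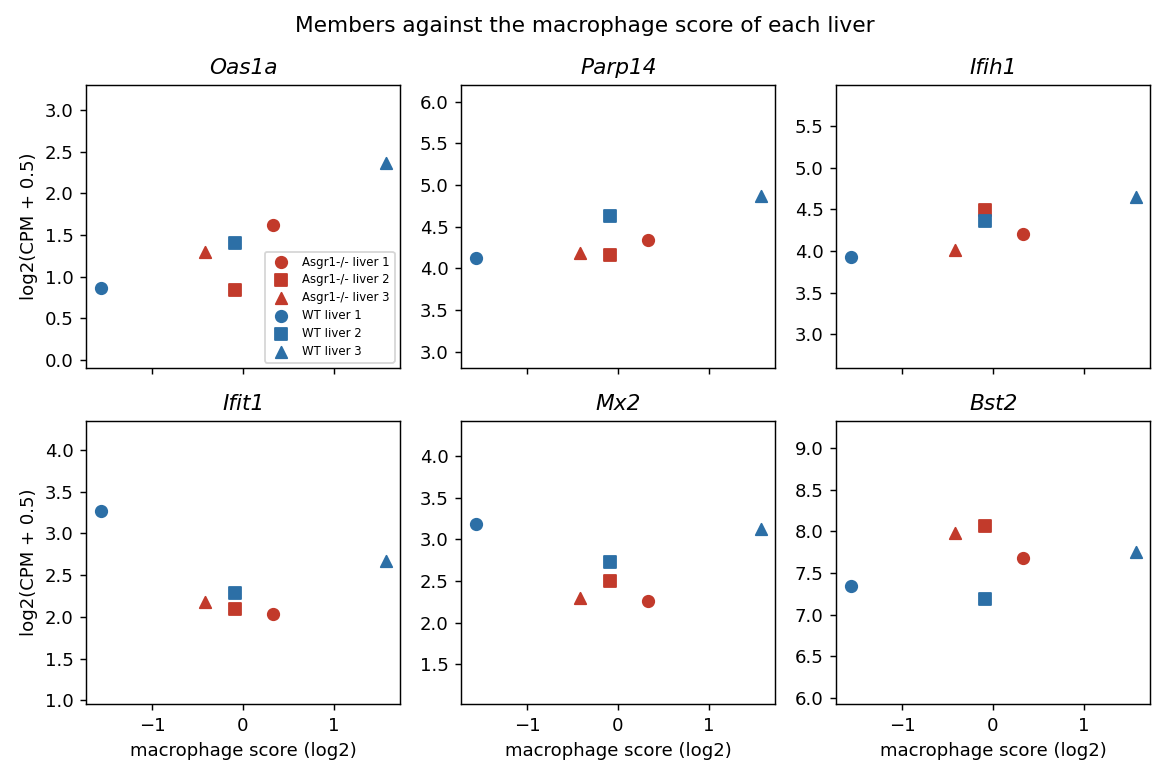
Log2(CPM + 0.5) of 6 interferon response genes (vertical axis) against the macrophage score of each liver (horizontal axis, log2 units relative to the WT mean), with 1 point per liver and the same vertical span in each panel. *Oas1a*, *Parp14* and *Ifih1* are highest in WT liver 3, while *Ifit1* and *Mx2* are highest in WT liver 1, the liver with the lowest score.

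Of the 28 genes tested, *Oas1a*, *Parp14* and *Ifih1* had the smallest p for the slope. Below the filter, *Oasl2*, a further OAS family gene, had a slope of 0.40 in the fit with no filter (edgeR, adjusted p = 0.101). *Oas1a*, an oligoadenylate synthetase, had 59, 26 and 40 counts in *Asgr1*-/- livers, against 26, 44 and 93 in WT livers, so WT liver 3 was the highest and WT liver 1 shared the lowest count. Its slope was 0.59 ± 0.15 (SE; edgeR, adjusted p = 0.0849), the steepest of the 28. With a filter of mean FPKM of at least 0.1 it was called (edgeR, slope 0.58, adjusted p = 0.0461), as it was with no filter (slope 0.57, adjusted p = 0.00416), and over all alternatives its adjusted p ran from 0.00416 to 0.699. *Oas1a* shares 57.6% of its 50-base words with *Oas1g*, so its counts are uncertain.

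*Parp14*, an ADP-ribosyltransferase, had 450, 352 and 362 counts in *Asgr1*-/- livers, against 334, 498 and 577 in WT livers. Its slope was 0.24 ± 0.07 (SE; edgeR, adjusted p = 0.107), and the WT livers alone spanned its whole range. *Ifih1* had 410, 445 and 319 counts in *Asgr1*-/- livers, against 291, 414 and 493 in WT livers, with a slope of 0.23 ± 0.08 (SE; edgeR, adjusted p = 0.193). *Ifi27*, a small interferon-induced protein and the most abundant of its role, had 2569, 2526 and 2838 counts in *Asgr1*-/- livers, against 2320, 2485 and 3300 in WT livers. Its slope was 0.13 (edgeR, adjusted p = 0.409) and -0.06 without WT liver 3. At the other end of the set, *Ifit1* had a slope of -0.20 and *Ifit3* one of -0.14.

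Correlations over the 6 livers gave the same 3 genes. Pearson's r with the score was 0.87 for *Oas1a* (exact permutation p = 0.0389), 0.83 for *Ifih1* (exact permutation p = 0.0264) and 0.81 for *Parp14* (exact permutation p = 0.0444). Spearman's rho was 0.66 (exact permutation p = 0.175), 0.83 (exact permutation p = 0.0583) and 0.71 (exact permutation p = 0.136) in the same order. Adjusted over 10153 genes, the smallest p of the 28 was 0.539 for r and 0.736 for rho. WT livers 1 and 3 were the 2 livers farthest from the median score. Without them, r was 0.44 for *Oas1a*, 0.32 for *Ifih1* and 0.26 for *Parp14*. The livers left had scores of only -0.42 to 0.33, so these lower values cannot decide whether each relation rested on those 2. An r above 0.8 was found in 3 of 28 genes and in 5.75% of all genes, and an r below -0.8 in 0 of 28 and in 4.49%.

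The highest level of most genes fell in WT liver 3 or WT liver 1. WT liver 3, with the highest macrophage score, was highest for 21 of the 38 genes. WT liver 1, with the lowest score, was highest for 11, namely *Stat2*, *Ifit1*, *Ifit3*, *Ifit3b*, *Isg15*, *Usp18*, *Mx1*, *Mx2*, *Rsad2*, *Cmpk2* and *Ifi44*. Of the 28 genes tested, 16 (57.1%) peaked in WT liver 3 and 6 (21.4%) in WT liver 1, and of all genes tested 16.5% and 23.5% did, so the share peaking in WT liver 1 was near that of all genes. This division was seen in the values and was not tested. The remaining peaks were in *Asgr1*-/- liver 2 for 3 genes (*Dhx58*, *Bst2* and *Gbp3*), *Asgr1*-/- liver 3 for 2 (*Ddx58* and *Ifi35*) and WT liver 2 for *Igtp*. The lowest values were in *Asgr1*-/- livers 1 and 3 for 11 genes each and in WT liver 2 for 10.

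The genotype comparison was repeated with a cell marker score as a term. With the macrophage score as a term, the median log2 fold change of the 28 genes was -0.22 (edgeR). Of the 28, 0 were called, where 263 of all 10167 genes were. At an unadjusted p under 0.05, 10 of the 28 were lower and 3 higher in the same fit. *Mx2* had a log2 fold change of -0.73 in that fit (adjusted p = 0.0778), *Iigp1* one of -0.55 (adjusted p = 0.0698) and *Bst2* one of 0.49 (adjusted p = 0.0967). *Oas1a* moved most, with -0.27 in that fit against -0.47 without the score. With the endothelial score as the term, the median was -0.17, with 9 lower and 3 higher at an unadjusted p under 0.05. That fit called 0 of the 28 and 220 of all genes (edgeR). The share of all genes at an unadjusted p under 0.05 was not taken in either fit, so the members' counts have no background beside them.

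**Figure D4:**
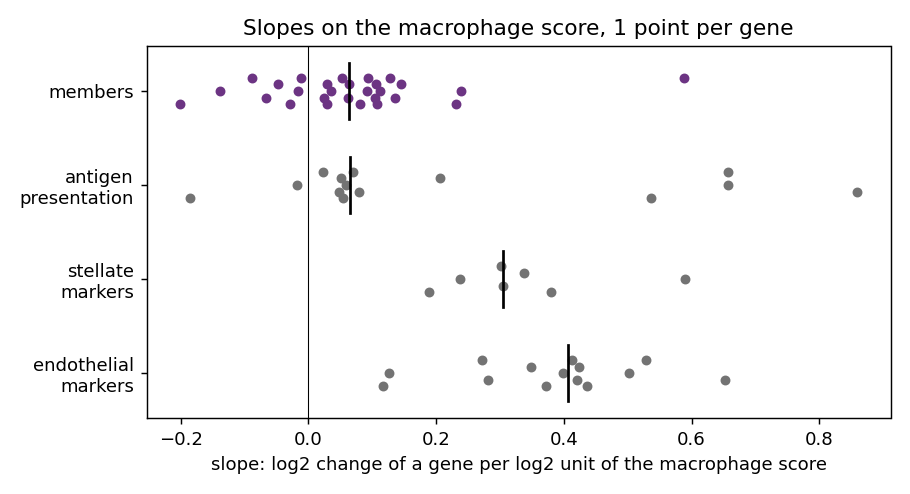
Slope on the macrophage score (horizontal axis, log2 change of a gene per log2 unit of the score) with 1 point per gene and a vertical bar at the median of each list. The 28 interferon response genes have a median of 0.06, antigen presentation genes 0.06 with 4 MHC class II genes at 0.54 to 0.86, stellate markers 0.30 and endothelial markers 0.41.

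Among other genes of the interferon pathway, a few did pass that test. Of 14 antigen presentation genes tested, 4 were called with a positive slope (edgeR), where 1.7% of all genes were. All 4 belong to the MHC class II pathway that macrophages and dendritic cells use. These were *Cd74*, the invariant chain, with a slope of 0.86 (adjusted p = 0.00185), *H2-Aa* with 0.66 (adjusted p = 0.0204), *H2-Ab1* with 0.66 (adjusted p = 0.0118) and *H2-Eb1* with 0.54 (adjusted p = 0.0299). *Cd74* had 1402, 1418 and 904 counts in *Asgr1*-/- livers, against 501, 866 and 3314 in WT livers, the same order among the WT livers as *Clec4f*. The 10 others of that list, which serve the MHC class I pathway, did not pass. Outside the pathway, 7 of 14 endothelial, 3 of 7 stellate and 2 of 3 cholangiocyte markers were called with a positive slope, against the same 1.7%. The cholangiocyte markers were *Krt19* with a slope of 0.69 (edgeR, adjusted p = 0.0347) and *Epcam* with 0.78 (edgeR, adjusted p = 0.0332). These calls depended on the WT livers at the ends of the score. Without WT liver 1, *Cd74* alone of these 4 lists was called (edgeR, slope 1.09, adjusted p = 0.0422), and without WT liver 3 no gene was, with a slope of 0.51 for *Cd74* (edgeR, adjusted p = 0.0932). With the score made from endothelial markers instead, 0 of the 14 antigen presentation genes were called, with an adjusted p of 0.0514 for *Cd74* and 0.112 to 0.230 for the other class II genes (edgeR). The difference between these slopes and those of the interferon response genes was not tested.

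Between genotypes, no list of the pathway held a called gene in edgeR. Among 13 receptor and JAK-STAT genes, *Socs3*, a feedback inhibitor of cytokine signalling, had a log2 fold change of -1.15 (adjusted p = 0.0925), with 119, 118 and 130 counts in *Asgr1*-/- livers, against 223, 378 and 177 in WT livers. Of 9 further sensors, adaptors and IRFs, *Ikbke*, a kinase that activates IRF3, had a log2 fold change of 0.83 (edgeR, adjusted p = 0.0606) and *Ticam1*, the TLR3 adaptor, one of 0.43 (edgeR, adjusted p = 0.146). Antigen presentation genes had estimates of 0.41 for *Tap2*, a peptide transporter, and -0.35 for *B2m*, the MHC class I light chain, and neither passed.

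A further list held 36 interferon-stimulated genes distinct from the 38, and the 19 that passed the filter had a median log2 fold change of -0.29 and 0 calls, with 4 lower at an unadjusted p under 0.05 (edgeR). *Cxcl10*, a T cell chemokine, had 24, 32 and 25 counts in *Asgr1*-/- livers, against 66, 49 and 84 in WT livers, a log2 fold change of -1.36 (edgeR, adjusted p = 0.0979). All its *Asgr1*-/- livers lay below all its WT livers. The others were *Cxcl9*, a chemokine of the same receptor, at -1.05, *Trim25*, a ubiquitin ligase that activates RIG-I, at -0.46, and *Ube2l6*, the conjugating enzyme for ISG15, at -0.29. On the macrophage score, the 19 genes had a median slope of 0.13, with 16 above 0, against 49.6% of all genes, and 0 called (edgeR). At an unadjusted p under 0.05, 6 of the 19 slopes were positive and 0 negative, where 8.11% and 7.0% of all genes were. Of the 19, 14 peaked in WT liver 3, which had the highest score, and 16.5% of all genes tested did. Their slopes were not counted again without that liver. Most markers of other cells that make or answer interferon had low counts. *Siglech*, of plasmacytoid dendritic cells, had 0 to 10 counts per liver, while *Irf8* and *Tcf4* of the same list, which other cells also express, had 84 to 201 and 107 to 218. The 10 T and NK cell markers had at most 35 counts. None of 7 monocyte and neutrophil markers reached the filter. Of 3 cholangiocyte markers tested, 0 were called between genotypes, with a median log2 fold change of 1.20 and 2 higher at an unadjusted p under 0.05 (edgeR). Of 5 B cell markers, *Ighm* alone passed the filter, and it was called lower, with 54 to 78 counts in *Asgr1*-/- livers, against 203 to 421 in WT livers (edgeR, log2 fold change -2.24, adjusted p = 0.0215). Leaving out each *Asgr1*-/- liver in turn gave *Ighm* adjusted p-values of 0.0611 to 0.134, and leaving out each WT liver 0.00153 to 0.0258 (edgeR). The other 4 had at most 22 counts per liver, and *Cd79a* overlapped, with 19, 5 and 13 counts in *Asgr1*-/- livers, against 15, 10 and 15 in WT livers.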

How the data were processed

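RNA-seq was performed on total RNA from 1 liver per mouse, in 3 Asgr1-/- and 3 WT mice, with 1 μg RNA per library. The deposited table held whole-number read counts per gene and FPKM values, which the authors derived from those counts and exonic gene length, and FPKM recomputed from the counts differed by at most 0.005. The submitters' processing notes name GRCm38 and DESeq2 1.6.3, and the sources used here state no aligner, counter or strand setting.

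Genes averaging an FPKM of 1 or more (10167 of 55401, with 98.9% of counts) were tested with edgeR 4.0.16 (R 4.3.3), using TMM scaling, the quasi-likelihood test and Benjamini-Hochberg adjustment over all genes, two-sided. A genotype call needed an adjusted p under 0.05 with a difference above 1.5-fold, and a slope call (on the macrophage score, fitted beside genotype) an adjusted p under 0.05. Correlations used all 720 orders of the 6 livers. Alternatives were other filters, DESeq2 1.42.0 (scaling or test), robust dispersion, limma 3.58.1 on log2(FPKM + 0.1) or log2(FPKM + 1), a replicate block, other scores and each liver left out. The code was tested on simulated data.

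The genes and lists were chosen with earlier results of these data known. Counts per liver were given for the 3 smallest p-values in each direction, the 4 smallest on the score and the most abundant gene of each role, and up to 4 genes were named from each other list by the smallest genotype p. Counts of Ifit1, Mx1, Rsad2, Clec4f and Cd74, and the genes named for their slopes, were added after their values were seen. Counts of Socs3, Cxcl10, Ighm, Cd79a and further cell markers are also outside the rule for counts. Mb21d1 and Tmem173 were not found under these symbols. Replicates were compared pairwise and none were duplicates.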

Additional observations from a re-analysis of the deposited data

How the results depend on the processing

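The direction of the members' median genotype difference held under all 16 alternatives, and no member was called lower in any. The number of all genes called between genotypes, 30 in edgeR at mean FPKM of at least 1, was 70 at mean FPKM of at least 0.1, 465 with no filter, 248 with DESeq2, 80 with robust dispersion, 11 and 16 with limma on log2(FPKM + 0.1) and log2(FPKM + 1), 263 with the macrophage score and 220 with the endothelial score as a term, and 3 to 288 with 1 liver left out. Members called higher numbered 0 to 1 with 1 liver left out, the 1 being Bst2 without WT liver 3. The members' median log2 fold change ran from -0.33 to -0.11 over these fits. Members higher at an unadjusted p under 0.05 numbered 0 without Asgr1-/- liver 3 or WT liver 2. They numbered 1 without Asgr1-/- liver 2 and 5 without WT liver 3. Those lower numbered 2 without Asgr1-/- liver 1 and, over all 38, 15 with no filter. In the alternatives the share of all genes at that p was not taken, so these counts have no background beside them.

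For the slope on the macrophage score, the number of all genes called, 216 in the fit reported, was 559 at mean FPKM of at least 0.1, 1045 with no filter, 376 with DESeq2, 63 and 49 with limma on the 2 log2 FPKM scales, 70 with the endothelial score, 72 with the score alone, and 12 to 275 with 1 liver left out. Members called with a positive slope numbered 1 (Oas1a) at mean FPKM of at least 0.1 and with no filter. Their median slope ran from -0.15 to 0.18 with 1 liver left out, and the slope of Ifi27 from -0.063 (WT liver 3 left out) to 0.157 (WT liver 1 left out). Same-numbered livers did not deviate together (correlations of their deviations of -0.168, 0.0241 and -0.0340), so the numbers were not taken as pairs. The replicate block gave 414 genes called for the slope, 0 members called in either comparison and a median genotype difference of -0.25. Causes of these changes were not tested. With 3 mice per genotype and members at the counts given above, a difference that misses the threshold is not shown to be absent.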
